A study of Mus musculus with 2 samples.

Results

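Genes of alcohol, aldehyde, retinol and carbonyl metabolism were followed in mouse liver 24 h after injury to the kidneys. They are 43 genes chosen by symbol from 6 enzyme families, the alcohol dehydrogenases (Adh, 4 genes), aldehyde dehydrogenases (Aldh, 13), aldo-keto reductases (Akr, 13), carbonyl reductases (Cbr, 3), and the short-chain dehydrogenases named Dhrs (4) and Rdh (6). Of the 18193 genes that the array annotation names, 41 are members, and 38 of these 41 passed a filter on low signal that 13128 genes passed in all. Akr1b3 and Akr1b7 are not analysed here because no probe set carries their symbol in the annotation used. Aldh1a2, Aldh1a3 and Aldh3b1 did not pass the filter.

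Both groups were female C57BL/6 wild-type mice, 8 weeks old. The AKI (acute kidney injury) group had 30 min of warm ischemia of both kidneys followed by reperfusion, and the sham group had a sham operation. Each group was measured as a single pool of 3 livers on 1 Affymetrix expression array, so there were 2 arrays and no replicates, and no p-value can be given. How much single mice varied is unknown, and in whole liver fewer cells of a type and less RNA per cell cannot be told apart. The median signal was 231.80 on the AKI array and 225.80 on the sham array. Differences are log2 values, AKI minus sham, of signal + 71.8, a constant that makes the differences of weak signals smaller. Probe sets of the same gene gave the only repeat measurement, with an SD within genes of 0.70 over 5149 genes and of 0.87 over the 14 members with several probe sets past the filter.

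Alcohol dehydrogenases oxidise alcohols to aldehydes, and aldehyde dehydrogenases oxidise the aldehydes to acids. Aldo-keto and carbonyl reductases run the opposite way, turning aldehydes and ketones of sugars, steroids, lipid breakdown products and drugs into alcohols. Retinol, or vitamin A, passes through the same chemistry, since it is oxidised reversibly to retinal and then irreversibly to retinoic acid, the ligand of nuclear receptors. The liver is the main site of ethanol oxidation and, in its stellate cells, the main store of retinol esters.

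Most of the measured members had a lower signal in the AKI pool. At least 2-fold lower were 17 of 38 and at least 2-fold higher were 2, where 12.4% of all genes past the filter were 2-fold lower and 10.4% were 2-fold higher. Of these 38 members, 32 had a difference below 0, against 51.1% of all genes. On the AKI array 4 of the 38 (Akr1c14, Akr1e1, Aldh1b1 and Akr1b10) were below the filter level, and on the sham array 1 (Cbr3). Each passed through the other array alone, which set the direction of its difference. Their median difference was -0.92, beside -0.02 over all genes. The members were chosen with earlier results of these data known, so the choice itself may set part of this contrast. Many members give strong signals. When genes are split into 4 classes by level, 23 of the 38 fall in the top class, where 13.9% of genes were 2-fold lower, 12.2% were 2-fold higher and 54.2% were below 0, with a median of -0.09. At least 4-fold lower were 6 members, Akr1c14, Akr1e1, Adh4, Dhrs3, Aldh1b1 and Aldh3a2, where 2.37% of all genes and 3.05% of genes in the top class were. Of these 6, Akr1c14, Akr1e1 and Aldh1b1 had AKI signals below the filter level of that array, 231.8, and passed the filter through the sham array alone, so they had to be lower in the AKI pool and the size of their differences is uncertain. The members that were 2-fold higher were Rdh10 and Aldh9a1. These counts depend on how the arrays are scaled. Centred on 18 hybridization control probe sets, 10 members were 2-fold lower where 8.12% of all genes were, and centred on 10 reference genes, 24 members were where 19.3% of all genes were. Adh1, Aldh1a1, Aldh16a1, Akr1c12, Akr1c13, Cbr1 and Dhrs4 were under 2-fold with the hybridization controls, between -0.95 and -0.75. Over all genes, lower genes made up 32.5% and 74.1% of the 2-fold calls under these centrings, against 54.4% with the authors' scaling, and the median of all genes was 0.28 and -0.31.

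**Figure D1:**
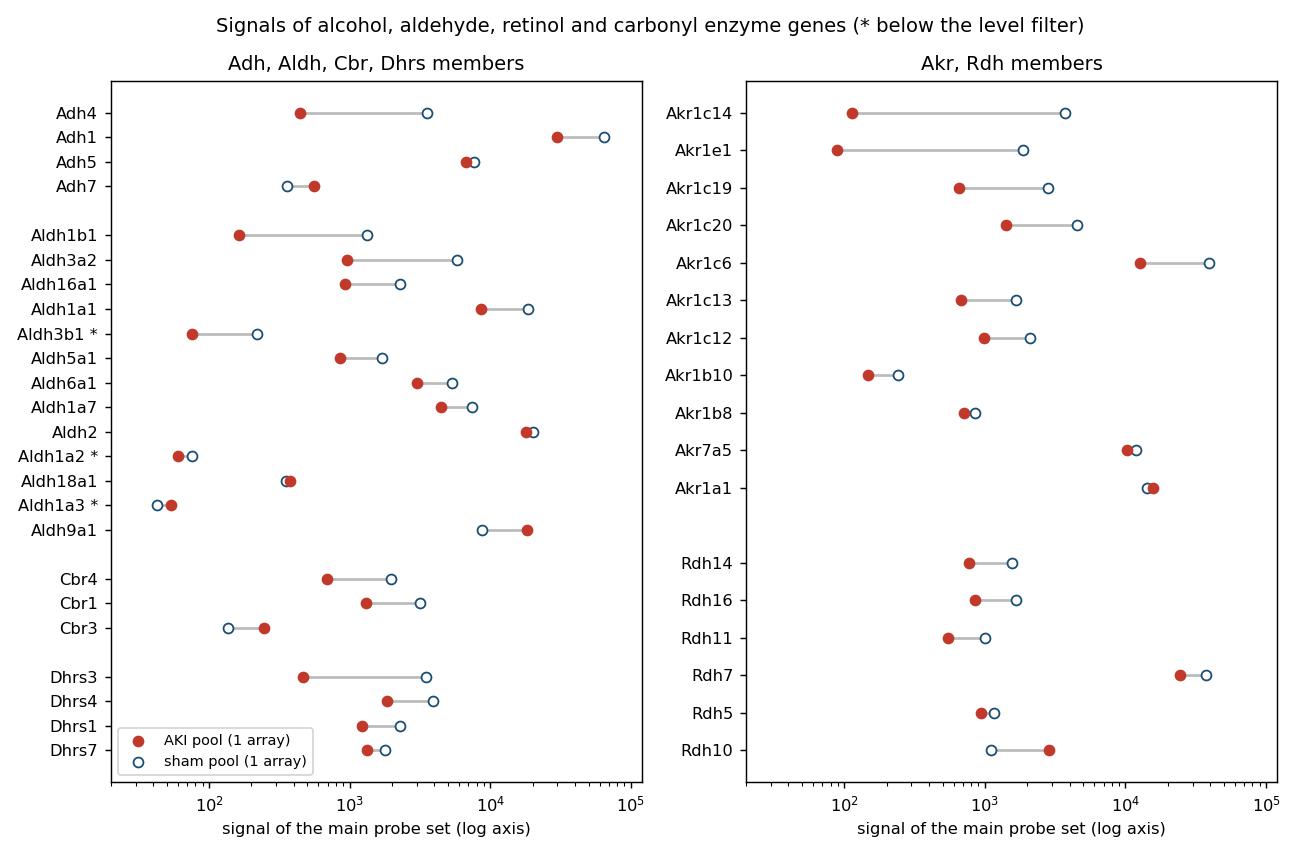
Signal of the main probe set of each of 41 members (log axis) on the AKI array (filled) and the sham array (open), 1 array per group, grouped by family; an asterisk marks the 3 members below the level filter. The AKI point lies left of the sham point for most members, farthest for Akr1c14 (113.1 and 3693.4), and right of it for Rdh10 (2869.8 and 1107.7).

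**Figure D2:**
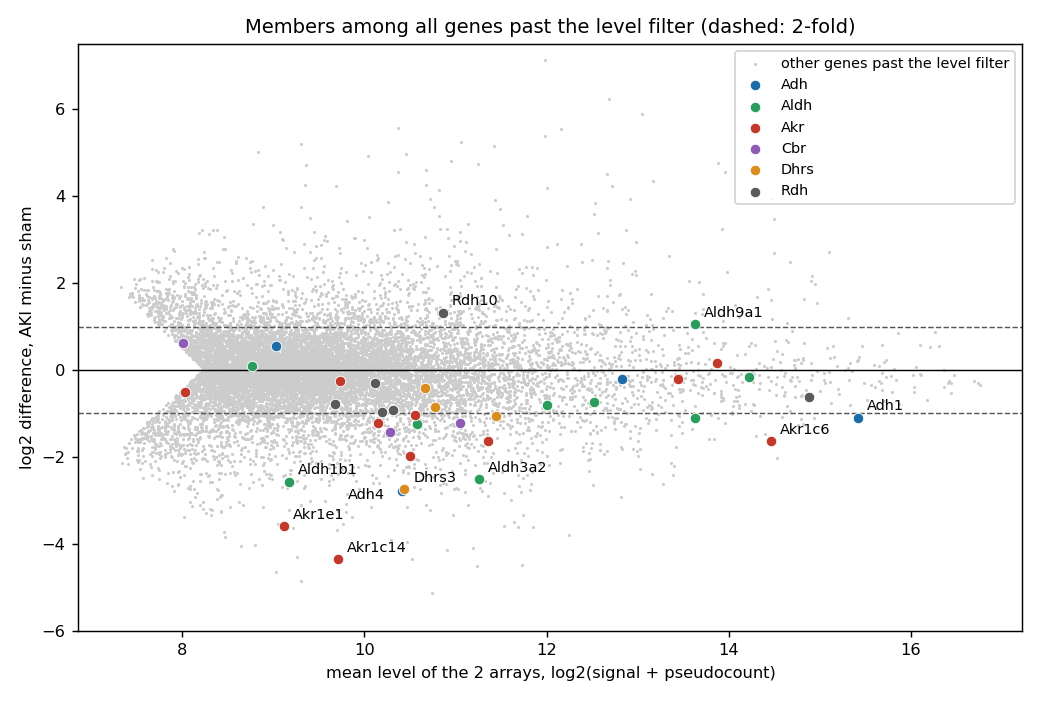
Log2 difference, AKI minus sham, against the mean log2 level of both arrays for the main probe set of every gene past the level filter (grey), with the 38 measured members coloured by family. The members spread from weak to strong signals, and most lie below 0.

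By family, the share of measured members at least 2-fold lower was 7 of 11 for Akr, 4 of 10 for Aldh, 2 of 4 for Adh, 2 of 4 for Dhrs, 2 of 3 for Cbr and 0 of 6 for Rdh, beside the 12.4% of all genes. The medians were -1.21 for Akr, -0.87 for Aldh, -0.65 for Adh, -0.95 for Dhrs, -1.23 for Cbr and -0.71 for Rdh. Each family median was below the -0.02 of all genes, but the families hold few genes and were not tested against each other.

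The sequences in front of the transcription starts are shown for the 4 measured members with the lowest differences that have a single start in the RefSeq promoter table and for the highest such member, so that members at both ends can be set side by side. Each line gives 250 bases, read in the gene's direction up to the base before the start, from RefSeq on GRCm38.p6. Capitals mark matches on either strand to any of 8 short motifs. Core promoter elements were searched as TATAAA for the TBP box, as CCAAT for the NF-Y box and as GGGCGG for the Sp1 box. Liver factors were searched as GTTAAT for part of an HNF1 site, as TTGCNNAA for C/EBP factors and as AGGTCA for single sites of nuclear receptors. Stress-related sites were searched as TTCCNGGAA for STAT factors and as TGACNNNGC for the core of the antioxidant response element. No matches overlapped in the windows shown.
Akr1c14 (chr13:4059341-4059590, plus strand): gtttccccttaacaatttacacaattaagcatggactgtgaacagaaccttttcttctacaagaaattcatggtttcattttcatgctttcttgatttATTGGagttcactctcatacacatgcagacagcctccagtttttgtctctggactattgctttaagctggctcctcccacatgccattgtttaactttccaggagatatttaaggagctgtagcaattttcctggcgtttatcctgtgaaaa
Akr1e1 (chr13:4609165-4609414, minus strand): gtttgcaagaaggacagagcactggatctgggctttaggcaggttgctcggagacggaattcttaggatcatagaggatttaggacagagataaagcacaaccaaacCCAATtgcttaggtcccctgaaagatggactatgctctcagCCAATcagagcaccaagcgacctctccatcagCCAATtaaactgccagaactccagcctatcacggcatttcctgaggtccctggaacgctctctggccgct
Adh4 (chr3:138415247-138415496, plus strand): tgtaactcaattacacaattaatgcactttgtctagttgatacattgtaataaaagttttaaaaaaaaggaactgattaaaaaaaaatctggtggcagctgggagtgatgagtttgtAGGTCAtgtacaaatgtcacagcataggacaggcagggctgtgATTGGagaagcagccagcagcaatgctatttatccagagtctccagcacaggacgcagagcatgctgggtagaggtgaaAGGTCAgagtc
Aldh1b1 (chr4:45798772-45799021, plus strand): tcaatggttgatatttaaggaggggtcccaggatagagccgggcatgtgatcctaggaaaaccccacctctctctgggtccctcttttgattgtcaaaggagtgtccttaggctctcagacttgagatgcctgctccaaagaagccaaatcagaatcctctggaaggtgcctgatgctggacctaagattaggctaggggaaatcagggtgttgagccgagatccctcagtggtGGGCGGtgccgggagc
Aldh9a1 (chr1:167349741-167349990, plus strand): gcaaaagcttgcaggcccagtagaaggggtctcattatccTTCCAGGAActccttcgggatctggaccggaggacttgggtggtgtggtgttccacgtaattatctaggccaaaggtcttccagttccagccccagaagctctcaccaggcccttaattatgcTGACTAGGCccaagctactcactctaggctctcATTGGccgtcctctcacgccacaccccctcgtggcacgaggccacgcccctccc

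Akr1e1 carries CCAAT 3 times, Akr1c14 and Adh4 carry it once on the other strand, and Adh4 also carries 2 matches to AGGTCA. Aldh1b1 carries 1 match to GGGCGG. The window of Aldh9a1, a member with a higher signal in the AKI pool, holds CCAAT on the other strand, a STAT and an antioxidant response element match. A RefSeq window was found for 35 of the 38 measured members. CCAAT was present in 7 of 16 windows of members at least 2-fold lower and in 7 of 19 windows of the other measured members, where 33.8% of all 32851 windows hold it. GGGCGG was present in 3 and 6 of them (32.7% of all windows), TATAAA in 1 and 5 (12.4%), AGGTCA in 1 and 4 (14%), and TTGCNNAA in 1 and 1 (9.56%). GTTAAT was present in 0 and 1 (6.43%), TGACNNNGC in 0 and 2 (10.2%), and TTCCNGGAA in 0 and 2 (0.913%). These matches describe the letters of the windows and show no binding.

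The alcohol dehydrogenases did not move as a block. Adh1, the class I enzyme that oxidises most ethanol in the liver and also oxidises retinol, had a signal of 29863.9 in the AKI pool, against 63982.2 in the sham pool, a difference of -1.10. Adh4, a class II enzyme of the liver that oxidises retinol and other longer alcohols, had 446.7 in the AKI pool and 3525.8 in the sham pool, a difference of -2.79. Its AKI signal was 12.7% of its sham signal, the lowest such share among the Adh members. Adh5 encodes the glutathione-dependent enzyme that removes formaldehyde and breaks down S-nitrosoglutathione. Its main probe set stood at 6699.8 in the AKI pool and 7725.7 in the sham pool (-0.20), while another probe set was at 0.89. Adh7, known from stomach epithelium as a retinol-oxidising enzyme, was weak, at 561.6 in the AKI pool and 357.6 in the sham pool (0.56), and its other probe set was below the filter. Only Adh1 and Adh4 of this family were 2-fold lower, and Adh1 was under that threshold, at -0.80, with centring on hybridization controls.

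Among the aldehyde dehydrogenases, the members with the largest differences act on different aldehydes in different compartments. Aldh1b1, a mitochondrial enzyme that oxidises acetaldehyde and other short aldehydes, had a signal of 164.2 in the AKI pool, against 1327.3 in the sham pool (-2.57). Aldh3a2, the fatty aldehyde dehydrogenase of the endoplasmic reticulum, had 954.2 in the AKI pool and 5766.3 in the sham pool (-2.51). Each rests on 1 probe set, and the AKI signal of Aldh1b1 was below the filter level of that array. Aldh16a1, a family member whose substrates are poorly known, had 922.1 in the AKI pool and 2281.5 in the sham pool (-1.24), and its other probe set gave -1.22. Aldh1a1, the cytosolic enzyme that makes retinoic acid from retinal, had 8626.0 in the AKI pool and 18554.6 in the sham pool (-1.10). Its close paralogue in rodents, Aldh1a7, had 4473.2 in the AKI pool and 7474.5 in the sham pool (-0.73).

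Aldh2, the mitochondrial enzyme that removes most acetaldehyde after ethanol intake, differed little by its main probe set, with 17994.0 in the AKI pool and 20172.8 in the sham pool (-0.16). Its 5 probe sets did not agree, from -2.11 to 1.13, so no direction can be given for it. The remaining mitochondrial enzymes, which act in amino acid and GABA metabolism, had smaller differences than Aldh1b1. Aldh6a1, which works in valine breakdown, had 3023.8 in the AKI pool and 5365.6 in the sham pool (-0.81). Aldh5a1, the succinic semialdehyde dehydrogenase, had 852.4 in the AKI pool and 1686.2 in the sham pool (-0.93). Aldh18a1, which starts proline synthesis, had 375.4 in the AKI pool and 350.7 in the sham pool (0.08). Of these 5 mitochondrial members, Aldh1b1 was the 1 with a 2-fold difference, and their median was -0.81.

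Aldh9a1, which oxidises an aldehyde on the way to carnitine, was the family's exception. It had a signal of 18198.1 in the AKI pool, against 8765.2 in the sham pool, a difference of 1.05. Its other probe set gave 0.41, and the difference was 0.76 with centring on reference genes and 0.73 as the mean of its probe sets. The 3 members below the filter had weak signals. Aldh1a2 and Aldh1a3, which make retinoic acid mainly in other tissues, had 60.3 and 53.2 in the AKI pool and 75.1 and 42.5 in the sham pool. Aldh3b1, an enzyme for longer aldehydes, had 75.6 in the AKI pool and 220.8 in the sham pool.

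**Figure D3:**
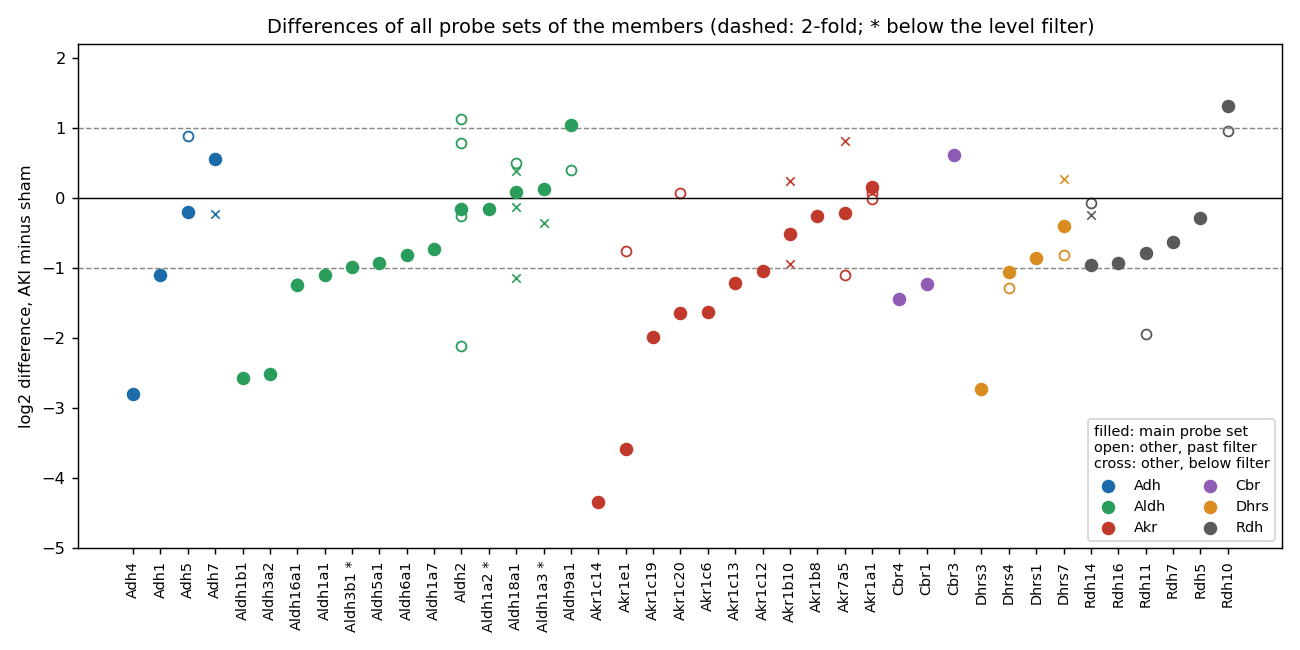
Log2 difference, AKI minus sham, of every probe set of the 41 members with 1 or more named probe sets, coloured by family; filled points are main probe sets, open points other probe sets past the level filter, crosses other probe sets below it, and an asterisk marks a member below the filter. The probe sets of Aldh2 lie on both sides of 0, from -2.11 to 1.13, and those of Aldh16a1 and Dhrs4 lie close together below -1.

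All 6 Akr1c members passed the filter. Each had a signal in the AKI pool lower by 2-fold or more, where 12.4% of all genes did. Their median was -1.63. The members were chosen with results of these data known. Akr1c18 (0.47) and Akr1c21 (-0.26), measured but not members, were under 2-fold. With centring on hybridization controls, Akr1c12 and Akr1c13 were under 2-fold too. Akr1c enzymes are reductases of steroids, prostaglandins and other carbonyl compounds. Akr1c14, a hydroxysteroid dehydrogenase of the mouse, had the lowest difference by the main setting. Its signal was 113.1 in the AKI pool, against 3693.4 in the sham pool, which is 3.06% of the sham signal and a difference of -4.35. The AKI signal was below the filter level, and the difference ran from -5.02 to -3.52 over the settings tried. Akr1c6, a hydroxysteroid dehydrogenase abundant in mouse liver, had 12752.2 in the AKI pool and 39561.4 in the sham pool (-1.63). Akr1c19 had 656.7 in the AKI pool and 2818.0 in the sham pool (-1.99). Akr1c20 had 1417.0 in the AKI pool and 4558.5 in the sham pool (-1.64), but its other probe set was at 0.07, and the mean of both was -0.78.

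Akr1c12 and Akr1c13 are close copies, and 1 further probe set is annotated to both. The probe set of Akr1c12 alone had 978.2 in the AKI pool, against 2092.6 in the sham pool (-1.04). That of Akr1c13 had 674.7 in the AKI pool, against 1658.8 in the sham pool (-1.21). The shared probe set had 3006.3 in the AKI pool and 7407.3 in the sham pool (-1.28). How far their own probe sets tell the copies apart is uncertain. Except for Akr1c20, each Akr1c member had 1 probe set.

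Outside that subfamily, Akr1e1 also had a weak signal in the AKI pool, below the filter level. It encodes a reductase of anhydrofructose, a product of glycogen breakdown. Its main probe set had 88.1 in the AKI pool, against 1853.9 in the sham pool (-3.59), and its other probe set had 188.0 in the AKI pool and 366.6 in the sham pool (-0.75). Over the settings tried its difference ran from -4.38 to -2.17. The general aldehyde reductase Akr1a1, which in mice serves ascorbate synthesis, had 15705.3 in the AKI pool and 14133.6 in the sham pool (0.15). Its 4 probe sets lay between -0.02 and 0.15. Akr7a5, a reductase of succinic semialdehyde and toxic dialdehydes, had 10272.1 in the AKI pool and 11883.1 in the sham pool (-0.21), with another probe set at -1.10. The Akr1b genes, relatives of aldose reductase, also stayed under 2-fold. Akr1b8 had 705.0 in the AKI pool and 854.8 in the sham pool (-0.25), and Akr1b10 had 147.2 in the AKI pool and 240.8 in the sham pool (-0.51), from 1 probe set each past the filter. The AKI signal of Akr1b10 was below the filter level. This gene passed through the sham array alone and had to be lower in the AKI pool. The median of this pair was -0.38.

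The Akr1c genes and Akr1e1 lie side by side in the genome, and so do 6 Adh genes, 4 of them members. The members can thus be read in gene order (GRCm38.p6, protein-coding genes). The run from Akr1c14 to Akr1e1 holds 9 genes, of which 7 are members. By their main probe sets these 7 were at least 2-fold lower, where 12.4% of all genes were. The other probe sets of Akr1c20 (0.07) and Akr1e1 (-0.75) were under 2-fold, as were Akr1c12 and Akr1c13 with centring on hybridization controls. The remaining pair inside the cluster was not 2-fold lower. Akr1c18 had 441.4 in the AKI pool and 298.8 in the sham pool (0.47), and Akr1c21 had 807.4 in the AKI pool and 979.9 in the sham pool (-0.26). The next gene beyond Akr1e1 is Klf6, a transcription factor gene with a signal of 3485.9 in the AKI pool and 118.8 in the sham pool (4.22). The 6 genes of the Adh cluster run Adh7, Adh1, Adh6a, Adh6b, Adh4, Adh5. Adh6b, beside Adh4, had 1327.8 in the AKI pool and 65.2 in the sham pool (3.35), the opposite direction to Adh4, from 1 probe set. Adh6a had 241.6 in the AKI pool and 158.4 in the sham pool (0.45). The sham signals of Adh6b, Adh6a and Klf6 and the AKI signals of Akr1c14 and Akr1e1 were below the filter level of their array, so these genes passed through the array where they are high and the size of the contrast between neighbours is uncertain. In the run that holds Rdh16 and Rdh7, the other genes measured there, Rdh9 (-0.58) and Rdh16f2 (-0.85), were lower in the AKI pool, as Rdh16 and Rdh7 were. The next gene, Sdr9c7 (-1.28), had an AKI signal of 196.0, below the filter level. It passed through the sham array alone and had to be lower in the AKI pool. Hsd17b6, beyond it, was at -1.77. On the other side of the run, Gpr182 (-0.03) and Zbtb39 (0.26) were under 2-fold. Klf6, Akr1c18, Akr1c21, Adh6a, Adh6b, Rdh9, Rdh16f2, Sdr9c7, Hsd17b6, Gpr182 and Zbtb39 are named here for their place beside the members.

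**Figure D4:**
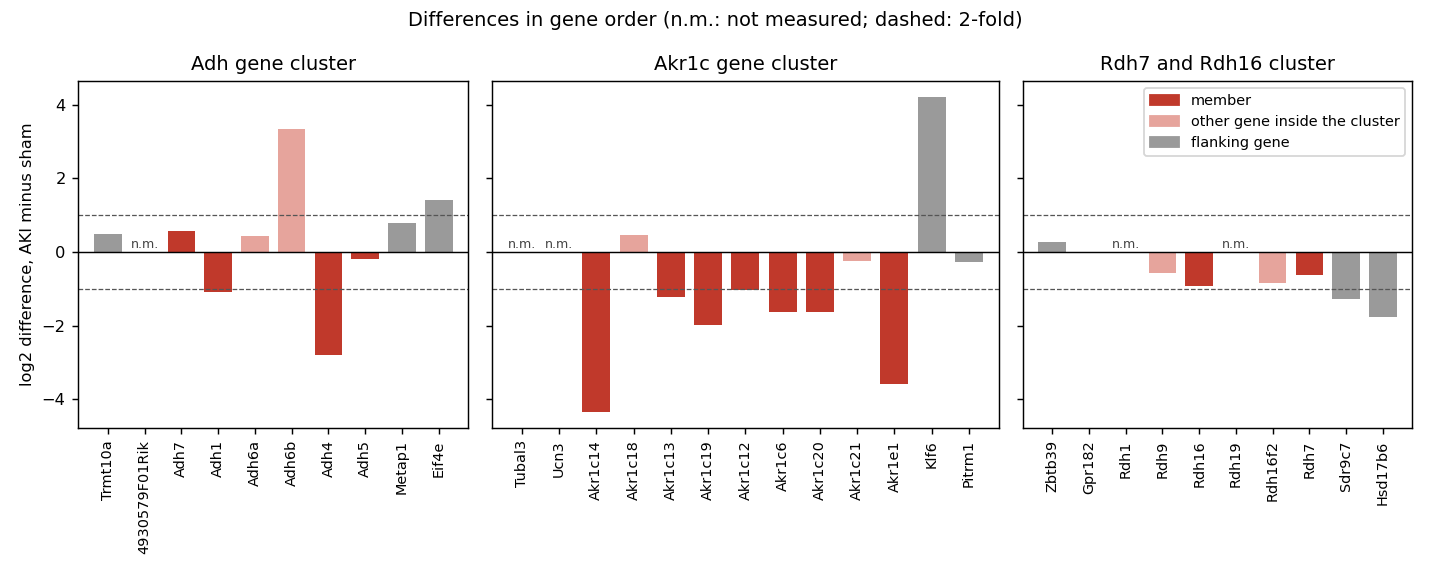
Log2 difference, AKI minus sham, of genes in genome order in the Adh cluster, the Akr1c cluster and the cluster that holds Rdh16 and Rdh7, with 2 flanking genes on each side; red bars are members, pale bars other genes inside the cluster, grey bars flanking genes, n.m. not measured. Akr1e1 (-3.59) stands beside Klf6 (4.22), and Adh4 (-2.79) beside Adh6b (3.35).

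Of the 3 carbonyl reductases, 2 were at least 2-fold lower, from 1 probe set each, where 12.4% of all genes were. Cbr1, the main cytosolic carbonyl reductase for quinones, prostaglandins and drugs, had 1311.1 in the AKI pool, against 3164.1 in the sham pool (-1.23). Cbr4, a mitochondrial reductase of fatty acid synthesis, had 686.0 in the AKI pool and 1980.5 in the sham pool (-1.44). Cbr3, which lies next to Cbr1 and is its closest relative, was weak, with 247.0 in the AKI pool and 136.9 in the sham pool (0.61). Its sham signal was below the filter level of that array. It passed through the AKI array alone and had to be higher there, so no contrast with Cbr1 can be drawn from it. With centring on hybridization controls Cbr1 was at -0.93 and Cbr4 at -1.14.

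Among the Dhrs members, Dhrs3, which reduces retinal back to retinol and limits retinoic acid, stood apart. Its signal was 465.6 in the AKI pool, against 3503.2 in the sham pool (-2.73), from a single probe set. Dhrs4, a peroxisomal reductase of retinal and other carbonyls, had 1855.4 in the AKI pool and 3929.1 in the sham pool (-1.05), and its other probe set was at -1.29. Dhrs1 and Dhrs7, enzymes of the endoplasmic reticulum with less certain substrates, were under 2-fold. Dhrs1 had 1232.1 in the AKI pool and 2281.5 in the sham pool (-0.85), and Dhrs7 had 1336.2 in the AKI pool and 1795.0 in the sham pool (-0.41).

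No Rdh member was 2-fold lower by its main probe set, and Rdh10 was higher. Rdh10, the enzyme that makes retinal for retinoic acid synthesis in the embryo, had 2869.8 in the AKI pool, against 1107.7 in the sham pool, a difference of 1.32. Its other probe set had 1076.7 in the AKI pool and 517.6 in the sham pool (0.96). The other retinol-oxidising members had lower signals. Rdh16 had 849.2 in the AKI pool and 1672.9 in the sham pool (-0.92), and Rdh7, also a liver enzyme, had 24290.4 in the AKI pool and 37467.5 in the sham pool (-0.62). Rdh5, known for its role with cis-retinol in the eye, had 932.7 in the AKI pool and 1155.1 in the sham pool (-0.29). A probe set annotated to Rdh5 and Bloc1s1 together gave -1.18, and one annotated to Rdh16 and a pseudogene gave 0.14.

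The retinal reductases Rdh11 and Rdh14 were lower by their main probe sets, though under the 2-fold threshold with the constant added. Rdh11 had 548.3 in the AKI pool and 999.7 in the sham pool (-0.79), and its other probe set was at -1.94. Rdh14 had 767.1 in the AKI pool and 1559.1 in the sham pool (-0.96), and its other probe set past the filter was at -0.07.

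Read by step of the retinoid route, the 4 members that reduce retinal to retinol (Dhrs3, Dhrs4, Rdh11 and Rdh14) all had differences below 0, as 51.1% of all genes did. Their median was -1.01. Dhrs3 rests on 1 probe set, and another probe set of Rdh14 was at -0.07. The 7 members that oxidise retinol to retinal ran from -2.79 for Adh4 to 1.32 for Rdh10, with a median of -0.62. Of the 3 members that make retinoic acid, Aldh1a1 alone was measured (-1.10). The steps were not tested against each other. Among 14 measured genes of retinoid transport, storage and signalling, 3 were at least 2-fold lower and 1 was higher, with a median of -0.43, where 12.4% of all genes were lower and 10.4% higher. These counts are small and near those shares. Bco2, a carotenoid-cleaving enzyme, had 35 in the AKI pool and 320.6 in the sham pool (-1.88). Lrat, the enzyme that esterifies retinol for storage in stellate cells, had 45.5 in the AKI pool and 320.1 in the sham pool (-1.74). The AKI signals of Bco2 and Lrat were below the filter level, and both passed through the sham array alone. Rxra, a partner receptor of the retinoic acid receptors, had 2424.3 in the AKI pool and 6103.2 in the sham pool (-1.31), but another probe set was at 0.01. Bco1, which splits carotene into retinal, had 1585.4 in the AKI pool and 678.6 in the sham pool (1.14). Cyp26a1, the retinoic acid hydroxylase and a target of retinoic acid, was at 987.3 in the AKI pool and 462.7 in the sham pool (0.99), and was picked out after its value was seen.

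**Figure D5:**
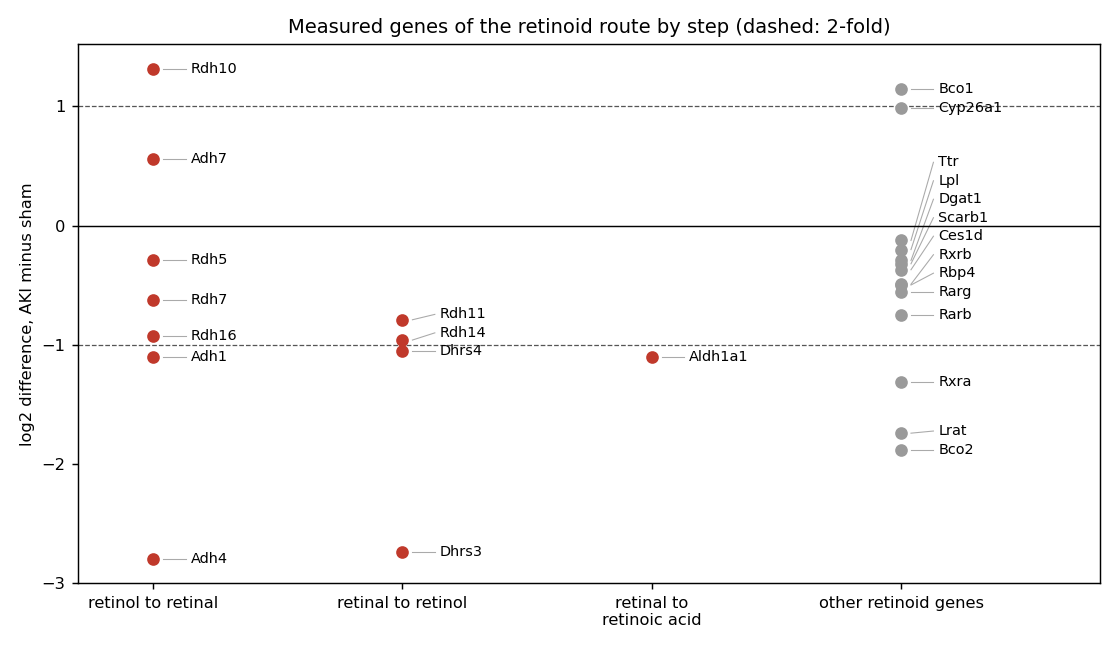
Log2 difference, AKI minus sham, of the measured genes of the retinoid route by step: members that oxidise retinol (7), members that reduce retinal (4), the member that makes retinoic acid (1) and other retinoid genes (14, grey). Rdh10 (1.32) and Bco1 (1.14) lie above the 2-fold line, and Adh4 (-2.79) and Dhrs3 (-2.73) are lowest.

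For the ethanol route, 3 of the 4 members that carry ethanol to acetate (Adh1, Aldh1a1 and Aldh1b1) were at least 2-fold lower. The median of the 4 was -1.10, and 12.4% of all genes were 2-fold lower. Aldh1b1 passed the filter through the sham array alone, and Adh1 and Aldh1a1 were under 2-fold with centring on hybridization controls. Aldh2 was under 2-fold by its main probe set, but its probe sets ran from -2.11 to 1.13. Ethanol is also oxidised by Cyp2e1, a microsomal P450, and by catalase. Cyp2e1 had 73503.4 in the AKI pool and 96610.6 in the sham pool (-0.39), and Cat had 8903.6 in the AKI pool and 18781.3 in the sham pool (-1.07). Acss2, which turns acetate into acetyl-CoA, had 1171.6 in the AKI pool and 3918.1 in the sham pool (-1.68).

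Of 22 measured relatives in the same enzyme families that are not members, 3 were at least 2-fold lower and 2 were higher, with a median of -0.08, where 12.4% of all genes were lower and 10.4% higher. The lower ones were Aldh8a1 (-4.10), an enzyme of kynurenine breakdown, Hsd17b6 (-1.77), a hydroxysteroid dehydrogenase related to the Rdh genes, and Akr1d1 (-1.02), the reductase of bile acid synthesis. Another probe set of Hsd17b6 was at -0.39 and another of Akr1d1 at -0.86, both under 2-fold. The higher ones were Adh6b (3.35) and Rdh12 (1.73), and Rdh12 had 263.5 in the AKI pool and 29.0 in the sham pool. Both passed the filter through the AKI array alone. Members and relatives were not tested against each other, since both lists were chosen with results of these data known and the choice may set the difference.

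Both pools carried the markers of liver. Of 10 hepatocyte markers, 8 were named and measured and 0 differed by 2-fold, with a median of -0.37 and a summed signal of 451690.4 in the AKI pool and 545030.8 in the sham pool. Albumin, Alb, had 98303.4 in the AKI pool and 124515.9 in the sham pool (-0.34). Pericentral and periportal hepatocyte markers had medians of -0.37 over 12 genes and -0.37 over 10 genes, but single markers differed widely. Of the pericentral list, Slc1a2 (-1.59) and Gulo (-1.30) were at least 2-fold lower and Glul (1.28) was higher. Another probe set of Slc1a2 was at -0.62 and another of Glul at -0.27. Of the periportal list, Pck1 (-4.48) and Hal (-2.82) were lower and 0 were higher, but the 3 probe sets of Pck1 past the filter ran from -4.48 to -0.48. Stellate cell markers had a median of -0.10 over 11 genes, with summed signals of 24283.0 in the AKI pool and 17819.5 in the sham pool. Without its strongest marker, Dcn, the sum was 9560.8 in the AKI pool and 10094.6 in the sham pool. Kupffer cell markers were at -0.52 over 12 genes (12536.7 and 18918.0) and endothelial markers at -0.63 over 10 genes (7003.2 and 11068.2). Of the Kupffer list, Clec4f (-1.37), Cd5l (-1.24) and C1qa (-1.01) were at least 2-fold lower and Marco (1.46) was higher. Of the endothelial list, Clec4g (-2.08), Oit3 (-1.86), Stab1 (-1.55) and Dnase1l3 (-1.24) were lower and Lyve1 (1.79) was higher. The sham signal of Marco and the AKI signal of Oit3 were below the filter level of their array. Without Clec4g the endothelial sum was 6329.2 in the AKI pool and 7982.1 in the sham pool. Neutrophil markers had a median of 0.54 over 8 genes, with summed signals of 8765.2 in the AKI pool and 3860.7 in the sham pool. S100a8 (3.17), S100a9 (2.72) and Ngp (1.12) were at least 2-fold higher, and 5 were under 2-fold, with Mpo at -0.03. The sham signals of S100a8 and S100a9 were below the filter level of that array, so both passed through the AKI array alone. Of cholangiocyte markers 2 were measured, Epcam (0.40) and Sox9 (2.58), and 7 kidney markers had a median of 0.10 with 0 past 2-fold. No marker was listed at 0, and the part that cell makeup has in the members' differences was not tested.

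A repeat measurement was rare among the largest differences. Of the 17 members at least 2-fold lower, 13 had 1 probe set past the filter and 4 had 2. All probe sets of Aldh16a1 and Dhrs4 were at least 2-fold lower, those of Akr1e1 were both below 0, and those of Akr1c20 were not. Set against the probe-set SD of their level class, 10 members lay lower than 2 SD and Rdh10 lay higher than 2 SD. The 10 were Adh4, Aldh1b1, Aldh3a2, Akr1c6, Akr1c14, Akr1c19, Akr1c20, Akr1e1, Cbr4 and Dhrs3. The share of all genes beyond this bound was not counted, so the count has no background. Aldh1b1, Akr1c14 and Akr1e1 passed the filter through the sham array alone. The SD of the members themselves, 0.87, was larger, and Akr1c6, Akr1c20, Cbr4 and Rdh10 lay within 2 of it. Neither SD holds the variation between mice.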

How the data were processed

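The authors deposited linear signal intensities, from 0.6 to 127786.6, for each probe set. They were made with software not given in the sources used here. Without the top and bottom 2% of probe sets, both arrays averaged 499.87, so the deposited intensities had been scaled to a common target. Per the labels' protocols, biotinylated cRNA was made from 8 ug of total RNA from pooled liver. Of 45037 non-control probe sets, 34945 had 1 symbol in the platform annotation, 932 several and 9160 none, and 34741 of those with 1 symbol matched RefSeq (GRCm38.p6) by Entrez number, which altered 0 symbols.

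Differences of log2(signal + 71.8), with the 25th percentile of the table added, were taken for the probe set of highest mean level per gene. A gene was measured when this probe set reached the non-control median, 231.80 on the AKI array or 225.70 on the sham array. With 1 array per group nothing was tested. The 2-fold threshold served for counts. All 43 members are named, and up to 4 genes of each other list, or every gene behind a count of 5 or fewer. Members and lists were chosen with earlier results of these data known. Python 3.11.15, numpy 2.4.6, pandas 2.3.3, statsmodels 0.14.6 and matplotlib 3.10.9 were used, and the computation was tested on simulated data.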

Additional observations from a re-analysis of the deposited data

How the results depend on the processing

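Across 11 alternatives of scaling, level filter, probe set choice and pseudocount, 17 of the 17 members at least 2-fold lower kept a difference below 0 wherever they had a value, and 9 of them stayed at least 2-fold lower in every setting that gave them a value. Centred on hybridization controls, 10 members were 2-fold lower, a count given above beside its share of all genes. The median was then -0.63 for all measured members, -0.57 for Aldh, -0.92 for Akr and -0.41 for Rdh. Adh1, Aldh1a1, Aldh16a1, Akr1c12, Akr1c13, Cbr1 and Dhrs4 then lay between -0.95 and -0.75. Centred on reference genes, 1 member was 2-fold higher, and these medians were -1.21, -1.16, -1.502 and -0.995. Without probe sets ending in _s_at, _x_at or _a_at, 0 members were 2-fold higher, since Aldh9a1 has no probe set outside these types and Rdh10 then stood at 0.96. The median of all members was then -1.04 and that of Adh -0.27. With the mean of all probe sets, 1 member was 2-fold higher. At the stricter level filter the Adh median was -1.10 over 3 genes. Lowess centring left 13 members 2-fold lower, where 11.2% of all genes were. A pseudocount at the table median left 15, and the share of all genes under it is not given here. The sign of Adh5, Aldh2, Aldh18a1, Akr1a1, Akr1b8, Akr7a5 and Rdh5 changed under some alternatives, and each of these was under 2-fold with the authors' scaling and the main probe set. No paired analysis was possible because each group has 1 array. The number of arrays limits the precision of every value.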

Other observations

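Targets of NRF2, the transcription factor of the antioxidant response that also drives several carbonyl-reducing enzymes, went both ways. Of 13 measured, 5 were at least 2-fold lower and 2 were higher, where 12.4% of all genes were lower and 10.4% higher. Their median was -0.38. The quinone reductase gene Nqo1, which like Cbr1 reduces quinones, had a signal of 40.7 in the AKI pool and 528.1 in the sham pool (-2.41). The glutathione synthesis genes Gclc (-1.49) and Gclm (-1.04), the NADPH-forming malic enzyme gene Me1 (-1.19) and Ugdh (-1.11), which makes the sugar for glucuronidation, were the others that were lower. The heme oxygenase gene Hmox1 had 1934.3 in the AKI pool and 619.7 in the sham pool (1.54), and the transporter gene Abcc4 was also higher (1.07). The other probe set past the filter was at -0.38 for Gclm and at -0.68 for Me1. The AKI signal of Nqo1 and the sham signal of Abcc4 (102.0) were below the filter level of their array. Each of these genes passed the filter only through the array where it is high.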
